A study of Mus musculus with 5 samples.

Results

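The brown and beige fat genes described here are the 8 rows of the deposited count table named Ucp1, Prdm16, Ppargc1a, Elovl3, Dio2, Adrb3, Ebf2 and Kcnk3, out of 24527 genes in all. They were chosen by name, as genes of thermogenic fat, to describe the kind of fat signal present in prostate tumor tissue. Bulk RNA-seq was performed on tumor-bearing prostates of 3 castrated and 2 intact mice of one genotype, called TripleTg (hHGFtg-hMETtg-BCAT-PBCre). Both groups carried a human HGF transgene that is expressed throughout the body, a human MET transgene that Cre switches on, and a Ctnnb1 allele from which Cre removes an exon to leave a stabilized β-catenin. Cre was under the probasin promoter, so that MET and β-catenin were changed in prostate epithelial cells. Castration was at 4 months, prostates of both groups were taken at 8 months, and the mice were of mixed C57BL/6 and C3H SCID background. The castrated libraries held 28015507, 18951782 and 20492061 counts (replicates 1 to 3) and the intact ones 21560355 and 22853501 (replicates 1 and 2).

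Both groups held libraries that stood apart. Castrated replicate 1 had 15 counts of the adipocyte hormone gene Adipoq, where castrated replicates 2 and 3 had 1282 and 1402 and the intact samples had 0 and 2. Intact replicate 2 had 28976 counts of Tgm4, a secretory gene of the differentiated mouse prostate, where intact replicate 1 had 5 and the castrated samples had 12, 1 and 1, and its 112 counts of Pbsn stood against 0 in intact replicate 1. Epithelial cells were present in all samples, since Krt8, Krt18, Epcam and Cdh1 were abundant in all 5 (289.5 TPM or more, a level scaled to gene length and library size), and the 8 epithelial markers summed to between 3450 and 5762 TPM. Of these 8, 6 were tested, 1 was higher and 5 were lower in castrated samples, where 47.9% of all tested genes were higher. At the unadjusted p, 0 passed the test, where 10.5% of all tested genes did, so the count says little about the list.

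Adipocytes come in kinds. White adipocytes store triglyceride and secrete hormones such as leptin, whereas brown adipocytes, and the beige adipocytes that appear within white depots, burn fatty acids to make heat. Norepinephrine from sympathetic nerves acts on the β3-adrenergic receptor (Adrb3) of the adipocyte, cyclic AMP rises, lipid is broken down, and the proton leak through the uncoupling protein UCP1 of the inner mitochondrial membrane releases the energy as heat. Dio2 converts thyroxine to the active thyroid hormone within the cell, Prdm16, Ebf2 and the coactivator Ppargc1a drive the gene program, Elovl3 lengthens fatty acids and Kcnk3 is a potassium leak channel of the plasma membrane. Only some of these genes are confined to thermogenic fat. Ppargc1a, Dio2, Kcnk3, Prdm16 and Ebf2 are also expressed by other cells, and Adrb3 is expressed by white as well as brown adipocytes.

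The stretches before the start of these genes are shown because a cyclic AMP signal acts on transcription through the element TGACGTCA. RefSeq (GRCm38.p6) promoters were matched for 4 of the 8 genes by symbol, and their starts are those of the deposited mm10 table. The 250 bases before the start are printed 5′ to 3′ on the gene's strand, and capitals mark TGACG (the first 5 bases of the cyclic AMP element, found within it on either strand), TATAAA and CCAAT, each searched on both strands, so that CGTCA in Ppargc1a is TGACG on the other strand. The lines below give Dio2, which was higher in castrated samples, Ppargc1a, which was lower, and Ucp1, which was almost without reads.
Dio2, chr12:90739039-90739288, minus strand: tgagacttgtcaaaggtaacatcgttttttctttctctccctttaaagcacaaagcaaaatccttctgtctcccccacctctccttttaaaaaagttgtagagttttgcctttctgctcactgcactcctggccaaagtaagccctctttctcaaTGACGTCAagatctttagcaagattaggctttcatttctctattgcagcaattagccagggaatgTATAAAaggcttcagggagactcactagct
Ppargc1a, chr5:51567726-51567975, minus strand: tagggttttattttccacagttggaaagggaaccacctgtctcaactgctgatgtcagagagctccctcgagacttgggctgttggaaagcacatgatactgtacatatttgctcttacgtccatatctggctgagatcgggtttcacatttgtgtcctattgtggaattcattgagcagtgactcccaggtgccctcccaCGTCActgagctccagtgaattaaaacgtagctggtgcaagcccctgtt
Ucp1, chr8:83290098-83290347, plus strand: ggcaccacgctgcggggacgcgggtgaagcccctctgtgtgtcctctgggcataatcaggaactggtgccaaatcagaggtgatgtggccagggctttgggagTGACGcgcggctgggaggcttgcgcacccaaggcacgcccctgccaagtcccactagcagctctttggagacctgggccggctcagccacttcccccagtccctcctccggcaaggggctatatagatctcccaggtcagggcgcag
Within these 250 bases, Dio2 was the only one of the 4 with the whole element, which began 95 bases before its start. The element is present in 1.55% of 32851 promoter windows of this length. Dio2 also held TATAAA 30 bases before its start (12.4% of windows). Ppargc1a and Ucp1 held TGACG once each, 49 and 147 bases before the start (17.8% of windows hold it). Prdm16 held only CCAAT (33.8% of windows), in a stretch with 22 CG dinucleotides against a median of 6 over all windows. Other starts of these genes and stretches farther from the start were not searched, so a gene without the element here may hold it elsewhere. A match describes the letters and not the binding of a factor, and binding was not measured in these samples.

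Ucp1, on chromosome 8 from 83290348 to 83298456, was almost without reads in every sample. It had 10, 1 and 1 raw counts in the 3 castrated samples (replicates 1 to 3) and 6 and 0 in the 2 intact samples, which is 18 reads over all samples. In CPM, counts scaled to library size with the trimmed mean of M-values (TMM), it was at 0.349, 0.0536 and 0.0481 in castrated samples and at 0.269 and 0 in intact samples. The groups overlapped, and the highest sample of each group was replicate 1. A count of 0 in intact replicate 2 allows up to 0.139 CPM, counting error only. Ucp1 did not reach the filter of more than 1 CPM in at least 2 samples and was therefore not part of the fit across genes. A two-sided exact permutation test of its CPM gave p = 0.8, in a design where the smallest p is 0.2. Over the groups, the ratio of castrated to intact counts was 1.32 (95% exact interval 0.457 to 4.28, counting error only).

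Read counts of Ucp1 were set beside those of Adipoq, which encodes the hormone adiponectin and marks adipocytes of both kinds. Ucp1 gave 0.078 reads per 100 reads of Adipoq in castrated replicate 2 (95% exact interval 0.00197 to 0.435) and 0.0713 in castrated replicate 3 (0.00181 to 0.398). In castrated replicate 1, where Adipoq was at 1 TPM, 10 reads of Ucp1 stood against 15 of Adipoq. The samples with the most Adipoq were therefore not those with the most Ucp1. Scaled per length, Ucp1 was 0.0585 and 0.0535 per 100 of Adipoq in castrated replicates 2 and 3. Intervals cover counting error only, since reads without molecular identifiers are not independent molecules.

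Elovl3, the very long chain fatty acid elongase of brown fat, on chromosome 19 from 46131897 to 46135694, had 6 counts in castrated replicate 2 and 0 in each of the other 4 samples. It was likewise under the filter, and the exact permutation test gave p = 1 (two-sided). A count of 0 allows up to 0.105 CPM in castrated replicate 1 and 0.144 CPM in castrated replicate 3, counting error only.

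**Figure D1:**
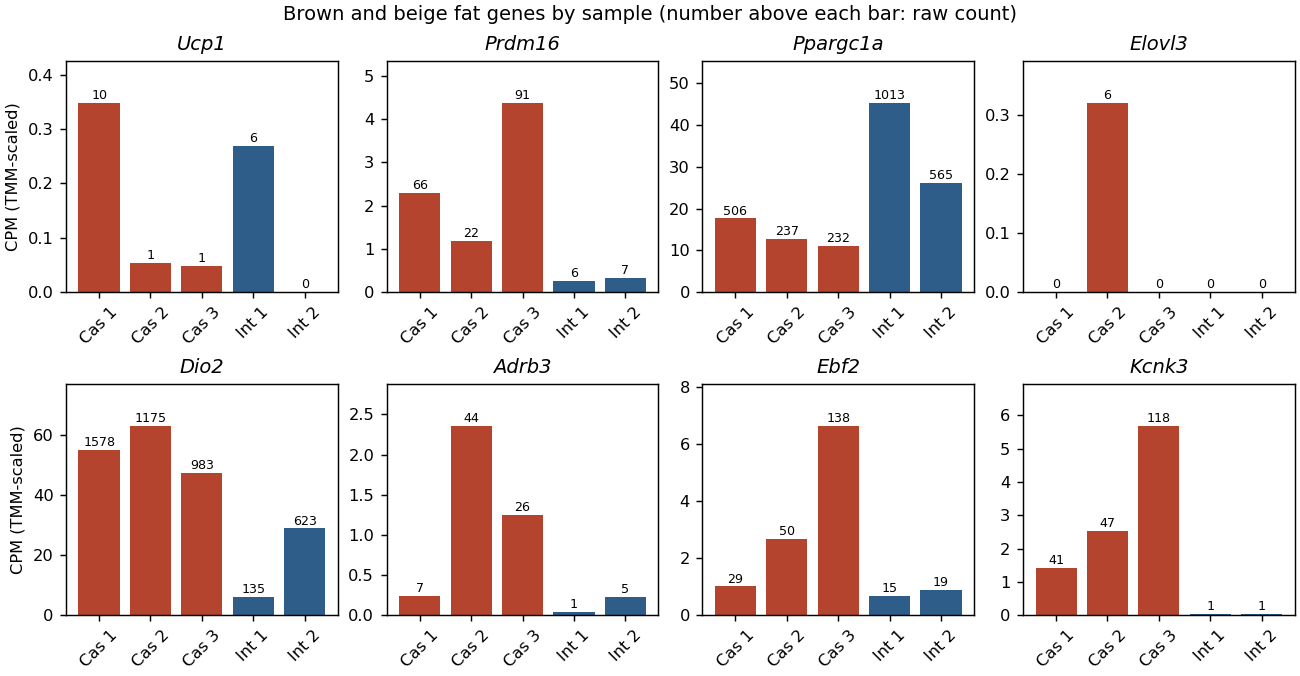
CPM (TMM-scaled) of each brown and beige fat gene in castrated replicates 1 to 3 (Cas, red) and intact replicates 1 and 2 (Int, blue), with the raw count above each bar and a separate y axis for each gene. Ucp1 and Elovl3 stay under 0.35 CPM in all samples, Ppargc1a is lower in each castrated sample, and Prdm16, Dio2, Adrb3, Ebf2 and Kcnk3 are higher in each castrated than in either intact sample.

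The other 6 genes were tested between castrated and intact samples with edgeR, in one fit over 14612 genes. After Benjamini-Hochberg adjustment, 0 of these genes (0.0%) passed at 0.05 with more than a 2-fold difference in edgeR's quasi-likelihood test, so none of the 6 did either, and the smallest adjusted p over all genes was 0.32. Without adjustment, 1530 genes (10.5%) passed with that difference, 7.34% of the tested genes as higher and 3.13% as lower in castrated samples. Of the 6 genes, Kcnk3 and Prdm16 passed as higher and Ppargc1a as lower at the unadjusted p. Without intact replicate 1, Kcnk3 alone of the 6 did, and Prdm16 (unadjusted p = 0.0505 from edgeR) and Ppargc1a (unadjusted p = 0.0628) no longer passed. DESeq2 called those 3 genes after adjustment, among 989 genes (6.77%) of which 703 were higher (4.81% of tested genes) and 286 lower (1.96%). All 6 had groups that did not overlap, 5 with every castrated sample above both intact samples (17.0% of tested genes) and 1 with every castrated sample below (16.2%). Prdm16, Adrb3, Ebf2 and Kcnk3 reached the filter only through castrated samples and could hardly have been tested unless they were higher there, so these counts say nothing about the genes as a group. In bulk tissue, fewer cells of a type and less RNA per cell cannot be told apart.

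Among the regulators, Prdm16, a zinc finger protein that brings the brown fat program to adipocyte precursors, lies on chromosome 4 from 154316125 to 154636873. Castrated replicates 1 to 3 had 66, 22 and 91 counts of it, and the intact samples had 6 and 7. Castrated samples averaged 2.62 ± 1.63 CPM (SD, n = 3) and intact samples 0.296 ± 0.0394 CPM (SD, n = 2). Each castrated sample was above both intact samples, and castrated replicate 2, which was rich in Adipoq, was the lowest of the 3. Its log2 fold change of castrated over intact samples was 3.13 (standard error 0.82, unadjusted p = 0.0111, adjusted p = 0.32 by edgeR).

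Ebf2, an early B cell factor that opens the brown fat enhancers, on chromosome 14 from 67233292 to 67430952, had 29, 50 and 138 counts in castrated and 15 and 19 counts in intact replicates. Its CPM of 1.01 in castrated replicate 1 lay just above the 0.88 of intact replicate 2, and castrated replicate 3 was the highest at 6.64. Its log2 fold change was 2.15 (standard error 0.94, unadjusted p = 0.0691, adjusted p = 0.377 from edgeR), and it was 1.24 without castrated replicate 3. The related factors Ebf1 and Ebf3, which adipocyte precursors and stroma also express, were also higher in every castrated sample. Ebf1 had 557, 728 and 772 counts in castrated and 317 and 92 in intact replicates, and Ebf3 had 254, 240 and 364 against 96 and 66. Ebf4 overlapped between the groups, with 45, 53 and 82 against 66 and 26 counts. Mecom, the close relative of Prdm16, was lower in every castrated sample (log2 fold change -1.03, standard error 0.34, unadjusted p = 0.0286, adjusted p = 0.331 from edgeR).

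Ppargc1a, the coactivator of mitochondrial biogenesis, on chromosome 5 from 51454249 to 51567725, went the other way. It had 506, 237 and 232 counts in castrated replicates and 1013 and 565 counts in intact replicates, a level of 13.8 ± 3.38 CPM (SD, n = 3) against 35.8 ± 13.6 CPM (SD, n = 2). Every castrated sample was below both intact samples, and the castrated replicates 2 and 3 with the most Adipoq were the lowest. The log2 fold change was -1.37 (standard error 0.35, unadjusted p = 0.0104, adjusted p = 0.32 from edgeR), and it was -0.90 without intact replicate 1. Its partner Esrra, a nuclear receptor of mitochondrial genes, was also lower in every castrated sample, with a log2 fold change of -0.36 (standard error 0.24, unadjusted p = 0.196 from edgeR). The relative Pprc1 was lower in every castrated sample as well (log2 fold change -0.53, standard error 0.24, unadjusted p = 0.0708 from edgeR), and Ppargc1b overlapped between the groups.

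Adrb3, the β3-adrenergic receptor, lies on chromosome 8 from 27225776 to 27229588. Its 7, 44 and 26 counts in the castrated samples stood against 1 and 5 counts in the intact samples. Its level was 0.244, 2.36 and 1.25 CPM in castrated and 0.0448 and 0.232 CPM in intact samples. Castrated replicates 2 and 3, the samples rich in Adipoq, were the high ones, while castrated replicate 1 was next to intact replicate 2. For Adrb3 the log2 fold change was 3.16 (standard error 1.31, unadjusted p = 0.0573, adjusted p = 0.362 from edgeR), and it was 4.63 without intact replicate 2 and 2.40 without castrated replicate 2. Per 100 reads of Adipoq there were 3.43 reads of Adrb3 in castrated replicate 2 (95% exact interval 2.48 to 4.63) and 1.85 in castrated replicate 3 (1.21 to 2.73). Adrb1, which encodes the β1-adrenergic receptor, had 33, 63 and 108 counts in castrated and 5 and 262 in intact replicates, so that the groups overlapped.

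Dio2, the type 2 deiodinase, on chromosome 12 from 90724552 to 90739038, was the most abundant of the 8 genes per length in castrated samples. It stood at 20.2, 23.3 and 17.3 TPM in castrated replicates and at 2.33 and 8.37 TPM in intact replicates, where Ppargc1a was higher in intact replicate 1 and close to it in intact replicate 2 (17.0 and 7.40 TPM). Raw counts of Dio2 were 1578, 1175 and 983 in castrated and 135 and 623 in intact replicates. The castrated samples were alike, castrated replicate 1 included, and most of the spread lay between the intact samples. The log2 fold change was 1.66 (standard error 0.68, unadjusted p = 0.0551, adjusted p = 0.36 from edgeR), and it was 3.15 without intact replicate 2 and 0.95 without intact replicate 1. Per length, the mean level in castrated samples ran in the order Dio2, Ppargc1a, Kcnk3, Ebf2, Adrb3, Prdm16, Ucp1 and Elovl3, from 20.2 through 4.95, 1.98, 1.42, 1.09, 0.717 and 0.216 to 0.129 TPM. Of all genes in the table, 68.7% had a lower mean than Dio2 there and 51.1% a lower mean than Ppargc1a, while Kcnk3, Ebf2, Adrb3 and Prdm16 overlapped over the castrated samples. Dio3, which inactivates thyroid hormone, had 540, 152 and 123 counts in castrated and 174 and 245 in intact replicates.

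Kcnk3, the potassium leak channel also called TASK-1, on chromosome 5 from 30588170 to 30625270, had the largest fold change among the 6 tested genes. It had 41, 47 and 118 counts in castrated replicates and 1 count in each intact sample, or 3.21 ± 2.21 CPM (SD, n = 3) against 0.0456 CPM on average in intact samples. All castrated samples were far above both intact samples, and castrated replicate 1, with little Adipoq, was at 1.43 CPM where castrated replicate 2 was at 2.52. The log2 fold change was 5.98 (standard error 1.05, unadjusted p = 0.00191, adjusted p = 0.32 from edgeR). With only 2 reads in intact samples, the ratio of counts was 67.8 with a 95% exact interval of 18.5 to 564 (counting error only). Its close relative Kcnk9 had 120, 2 and 71 counts in castrated replicates and 0 in both intact samples, and so was close to the intact samples in castrated replicate 2.

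**Figure D2:**
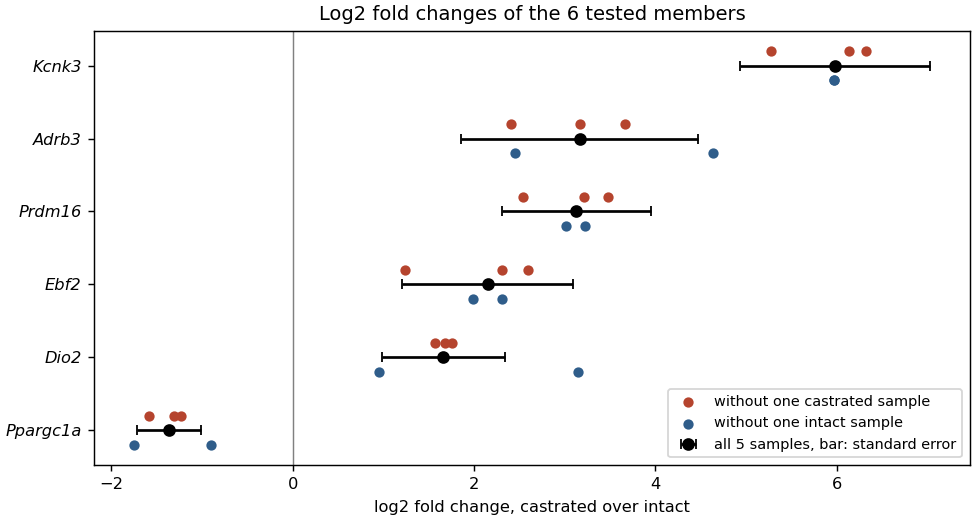
Log2 fold change of castrated over intact samples (x axis) for the 6 tested genes, with the standard error from edgeR as a bar (black), and the values when one castrated (red) or one intact (blue) sample was left out and the same genes were tested. Ppargc1a stays below 0 and the other 5 stay above 0 in each, and Dio2 moves most with the intact samples.

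The 6 genes did not follow one pattern over the samples. The order of the castrated samples was replicate 3, 1, 2 for Prdm16, replicate 3, 2, 1 for Ebf2 and Kcnk3, replicate 2, 3, 1 for Adrb3, replicate 2, 1, 3 for Dio2 and replicate 1, 2, 3 for Ppargc1a. Over 5 samples, the genes most like each in log2 CPM were Mmp17 and Resp18 for Prdm16 (Pearson's r = 0.999 and 0.998), Atp10b and Arhgef10 for Ebf2 (0.998 and 0.998) and Acvrl1 and Camk2b for Kcnk3 (0.999 and 0.998). Irf1 and Slamf7 were most like Adrb3 (0.999 and 0.999), Ccdc122 and Ctsc most like Dio2 (0.994 and 0.994) and Actl6a and Tgfbr3l most like Ppargc1a (0.998 and 0.997). With 5 samples, between 131 and 399 genes reached a correlation of 0.95 with any one of the 6, so that such neighbors are many.

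A further 25 genes of brown and beige fat, beyond the 8, were counted in the same fit. The filter was passed by 18 of them, 11 with a higher and 7 with a lower level after castration. Their median log2 fold change was 0.15 (0.0014 without castrated replicate 2 and 0.55 without intact replicate 1), against -0.03 over all tested genes, 47.9% of which were higher. At the unadjusted p, 1 passed as higher and 0 as lower, where 7.34% and 3.13% of all tested genes did, and 0 passed after adjustment in edgeR or DESeq2. The one was Slc27a2, a fatty acid transporter and acyl-CoA synthetase also made in other tissues, with 62, 21 and 1468 counts in castrated and 4 and 4 counts in intact replicates (log2 fold change 7.05, standard error 2.54, unadjusted p = 0.0367, adjusted p = 0.34 from edgeR). Most of its reads were in castrated replicate 3, it reached the filter only through castrated samples, and DESeq2 gave it no adjusted p. The genes of the list with the most reads, Otop1, Mpzl2, Zfp516, Letmd1, Pank1 and Esrra, had log2 fold changes between -0.36 and 0.09. Otop1, a proton channel, ranged from 194 counts in intact replicate 2 to 12485 counts in intact replicate 1.

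Some genes of that list had few reads. Cidea, a lipid droplet protein of brown adipocytes, had 12, 5 and 22 counts in castrated and 24 and 9 counts in intact replicates (log2 fold change -0.35, standard error 0.85, adjusted p = 0.877 from edgeR). Its level did not separate the groups, and it was lowest in castrated replicate 2. Cox8b, a cytochrome c oxidase subunit of brown fat and muscle, had 0, 1 and 3 counts in castrated and 0 and 0 in intact replicates. Cox7a1, another such subunit, had 20, 3 and 7 against 9 and 21 counts. Zic1 had 1 read in all 5 samples together, and so had Lhx8, and both mark classical brown fat. Of the beige fat markers, Tmem26 was at a log2 fold change of 0.99 (standard error 1.07, unadjusted p = 0.398 from edgeR), Tnfrsf9 at 2.16 (standard error 1.17, unadjusted p = 0.122) and Tbx1 at 1.77 (standard error 0.96, unadjusted p = 0.122). These markers are also made by other cells, and Tbx1 was highest in castrated replicate 1, with 1502 counts.

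Of the white fat genes, Lep, Retn and Slc7a10 had nearly all of their reads in castrated replicates 2 and 3. Lep, which encodes leptin, had 297 and 307 counts in castrated replicates 2 and 3 and 0 counts in castrated replicate 1 and both intact samples. With counts pooled over each group, Lep was at least 133-fold higher in castrated samples against a floor of 3 counts over the intact group. This bound rests on castrated replicates 2 and 3 alone, and the unadjusted p of Lep was 0.0529 (edgeR). Retn, which encodes the adipocyte hormone resistin, had 2, 464 and 404 counts against 1 and 0. Slc7a10, an amino acid transporter of white adipocytes, had 1, 71 and 118 counts against 0 and 0. For these 3 genes, castrated replicate 1 was like the intact samples. Hoxc8, Hoxc9 and Hoxc10, position genes of white depots in the rear of the body, did not reach the filter, with up to 7, 9 and 15 counts in castrated replicate 2. Of the 7 white fat genes, 4 were tested and 3 of them, Lep, Retn and Slc7a10, reached the filter only through castrated samples. Their count and median are thus fixed upward by the filter and show nothing about the list. The other tested gene was Tcf21, which stromal cells also express, with 334, 560 and 1594 counts against 67 and 60 (log2 fold change 3.78, standard error 0.92, unadjusted p = 0.00827, adjusted p = 0.32 from edgeR). DESeq2 called Tcf21, Retn and Slc7a10 as higher after adjustment (3 of the 4, where it called 4.81% of all tested genes as higher). Of these, Retn and Slc7a10 were fixed upward by the filter, so this count shows nothing about the list either.

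**Figure D3:**
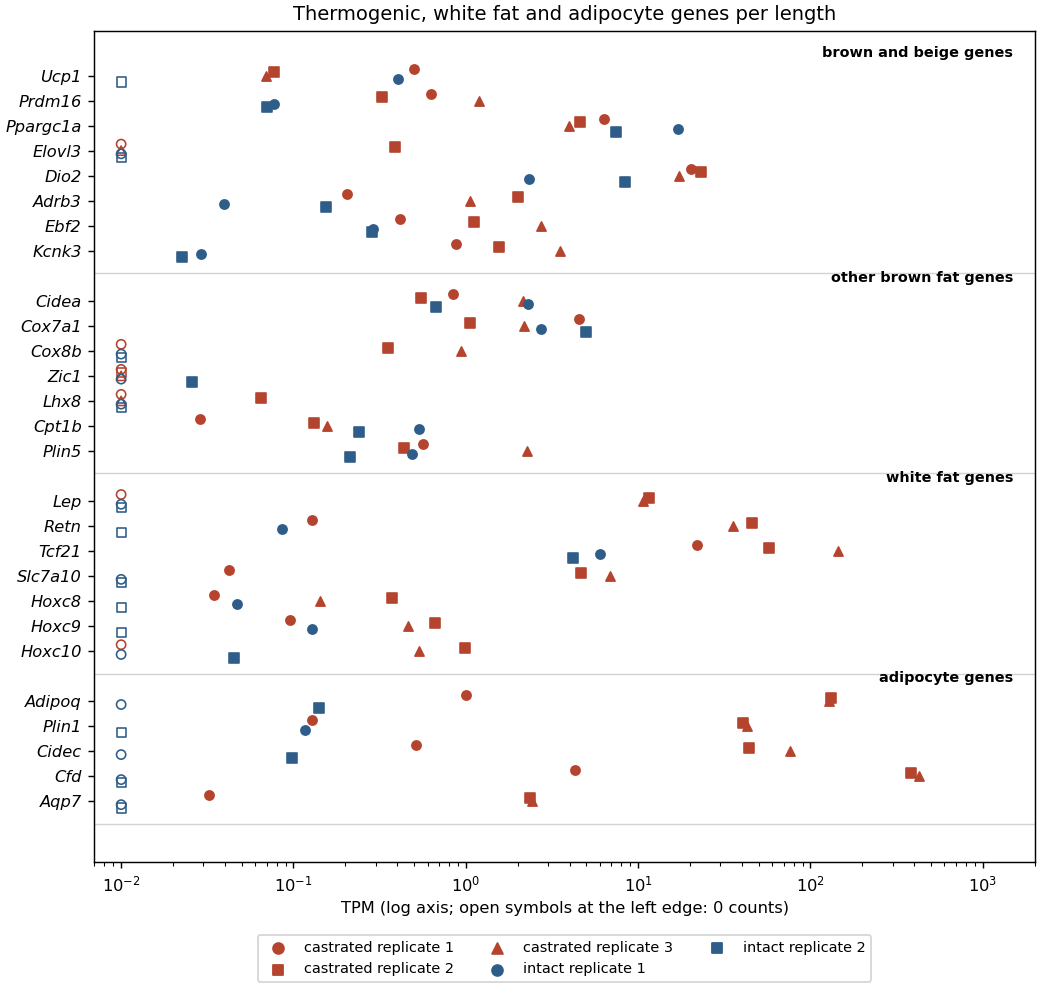
Level in TPM (log axis) of the brown and beige fat genes, other brown fat genes, white fat genes and 5 adipocyte genes in each castrated (red) and intact (blue) sample, with open symbols at the left edge for 0 counts. Castrated replicates 2 and 3 reach 132 and 129 TPM of Adipoq and 11.6 and 10.7 TPM of Lep. Ucp1, Cidea, Cox8b, Zic1 and Lhx8 stay under 2.5 TPM in every sample, but not all brown fat genes are that low. Cox7a1 reaches 4.53 TPM in castrated replicate 1 and 4.997 TPM in intact replicate 2. Dio2 is at 20.2, 23.3 and 17.3 TPM in castrated replicates 1 to 3, and Ppargc1a reaches 17.0 TPM in intact replicate 1.

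All 20 general adipocyte genes were tested, 20 were higher in castrated samples, 13 passed at the unadjusted p (7.34% of all tested genes passed as higher), and after adjustment edgeR called 0 and DESeq2 12 (4.81% of all tested genes as higher). Of the 20, 6 reached the filter only through castrated samples and had to be higher there. These 6 (Adipoq, Plin1, Plin4, Cidec, Cfd and Aqp7) were all among the 13 and the 12. The counts and the median of the list are thus partly fixed upward by the filter. The median log2 fold change of the 20 was 2.89 (2.89 also with bounds in place of the 2 genes without intact reads). Summed over the list, the level was 610, 5635 and 4809 TPM in castrated replicates 1, 2 and 3 and 475 and 427 TPM in intact replicates 1 and 2. Scd1, the stearoyl-CoA desaturase, had the highest mean of the list over the 5 samples. Cfd, which encodes adipsin, had 48, 2790 and 3461 counts in castrated and 0 counts in both intact samples. With counts pooled over each group, Cfd was at least 1382-fold higher against a floor of 3 counts over the intact group. This bound rests on castrated replicates 2 and 3 (149.5 and 166.6 CPM), since castrated replicate 1 was at 1.67 CPM. The gap between castrated replicate 1 and the other castrated samples was thus present in the general and the white fat genes. Summed over the 8 brown and beige genes, the level was 29.1, 33.3 and 29.9 TPM in castrated and 20.2 and 16.3 TPM in intact samples, with no such gap, and most of it was Dio2 and Ppargc1a.

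Ucp2, a relative of Ucp1 that many cell types express, was abundant at 960, 841 and 577 TPM in castrated and 777 and 371 TPM in intact samples (log2 fold change 0.39, standard error 0.35, adjusted p = 0.641 from edgeR). Ucp3, the relative found in muscle and brown fat, had 0, 4 and 8 counts in castrated and 1 and 1 counts in intact samples. Of the 19 relatives of the 8 genes, 16 were tested, 11 were higher and 5 lower (median 0.20 on the log2 scale), where 47.9% of all tested genes were higher. At the unadjusted p, 3 passed as higher (7.34% of all tested genes) and 2 as lower (3.13%), and DESeq2 called 2 as higher and 1 as lower after adjustment. Kcnk9 reached the filter only through castrated samples. Among the elongases, Elovl5 and Elovl7 had log2 fold changes of 0.20 and 0.05, while Elovl4 was lower at -3.54 (standard error 1.27, unadjusted p = 0.0358, adjusted p = 0.34 from edgeR), with 722 of its reads in intact replicate 2.

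Genes of adrenergic signaling were expressed in all samples. All 10 were tested, 8 were higher and 2 lower (47.9% of all tested genes were higher), and 0 passed at the unadjusted p with the fold change (10.5% of all tested genes). The median log2 fold change was 0.38 (0.24 without intact replicate 2 and 0.57 without intact replicate 1). Gnas, the stimulatory G protein subunit, had a log2 fold change of 0.33 and Prkacb, a catalytic subunit of protein kinase A, of 0.42, each higher in every castrated sample. Adcy3, an adenylyl cyclase of adipocytes, had 514, 1050 and 737 counts in castrated and 436 and 196 in intact replicates (log2 fold change 1.36, standard error 0.61, adjusted p = 0.381 from edgeR). Of 12 genes of heat production without UCP1, through creatine or calcium cycling or acyl amino acids, 8 were tested and 7 were higher, 1 of them (Ryr1) tested only through castrated samples, where 47.9% of all tested genes were higher (median 0.93 on the log2 scale, 0.62 without castrated replicate 2). At the unadjusted p, 2 passed as higher (7.34% of all tested genes), and DESeq2 called 1 as higher after adjustment (4.81%). Ckb, a creatine kinase of adipocytes and many other cells, had 598, 2811 and 2046 counts in castrated and 131 and 180 in intact replicates (log2 fold change 3.67, standard error 0.93, unadjusted p = 0.00963, adjusted p = 0.32 from edgeR). DESeq2 called Ckb as higher (adjusted p = 0.000526). Its castrated replicates 2 and 3 were the highest, as for Adipoq. Pm20d1, which makes acyl amino acids, was at a log2 fold change of 1.71 (standard error 0.65, unadjusted p = 0.044 from edgeR), and Ckmt2 and Sln had no read in any sample.

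Markers of other cell types were counted in the same fit, and edgeR called 0 of them after adjustment. Their lists were chosen with earlier results of these data known, so the counts given here are descriptions. At the unadjusted p, 7 of 8 smooth muscle, 4 of 5 fibroblast and 5 of 5 macrophage markers passed as higher (7.34% of all tested genes), with 0 endothelial markers and 1 nerve marker, Prph, which reached the filter only through castrated samples. DESeq2 called 6 smooth muscle, 2 fibroblast, 3 macrophage and 1 nerve marker as higher after adjustment (4.81% of all tested genes). The smooth muscle markers were higher in castrated samples for 8 of 8 genes, with a median log2 fold change of 2.32 and summed levels of 455, 752 and 619 TPM against 287 and 140 TPM, and Tagln was the most abundant. The fibroblast markers were higher for 4 of 5 genes, with 1786, 3536 and 5144 TPM against 1184 and 718 TPM, of which Dcn was 1119, 3007 and 4233 TPM against 574 and 438 TPM. The list's sum, like Prdm16, Ebf2 and Kcnk3, was highest in castrated replicate 3, while Col1a1 was at 335, 194 and 243 TPM against 488 and 155 TPM, with the groups overlapping. The macrophage markers were higher for 5 of 5 genes, with 827, 2588 and 1208 TPM against 475 and 420 TPM, and C1qa and Cd68 were the most abundant. Castrated replicate 2, highest in macrophage markers, was highest in Adrb3 and Dio2 as well. Endothelial markers, of which Cdh5 had the highest mean over the 5 samples through its 141 TPM in intact replicate 1, were higher for 4 of 5 genes and summed to 257, 149 and 175 TPM against 274 and 70.4 TPM, so that the groups overlapped. Nerve markers, of which Tubb3 had the highest mean, were higher for 4 of 5 tested of 9 and summed to 21.8, 16.1 and 29.8 against 13.7 and 14.6 TPM. The part of these cell types in the values of Prdm16, Ebf2, Kcnk3, Adrb3 and Dio2 was not tested.

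Markers of skeletal muscle were counted because it also expresses Ppargc1a, Cox7a1, Cox8b and Ucp3. The 12 markers summed to between 10.4 and 17.5 TPM in the 5 samples. Of these, 2 were tested, Tnni2 and Mylpf, and both had reads in all 5 samples, with the groups overlapping. Under the filter, Actn3 had 24, 16 and 49 counts in castrated and 11 and 3 in intact replicates. Acta1 had 8, 8 and 9 against 3 and 2, and Tnnt3 had 9, 15 and 17 against 9 and 4. In CPM, Actn3 and Acta1 were higher in every castrated sample, while Tnnt3 overlapped. Myh1 and Myog had no read in any sample, and Ckm had 2 reads in all. The part of skeletal muscle in the values of Ppargc1a, Cox7a1, Cox8b and Ucp3 was not tested. Of the 4 sebaceous gland markers, which were counted because sebaceous glands make Elovl3, 1 was tested, and they summed to between 1.82 and 3.83 TPM.

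**Figure D4:**
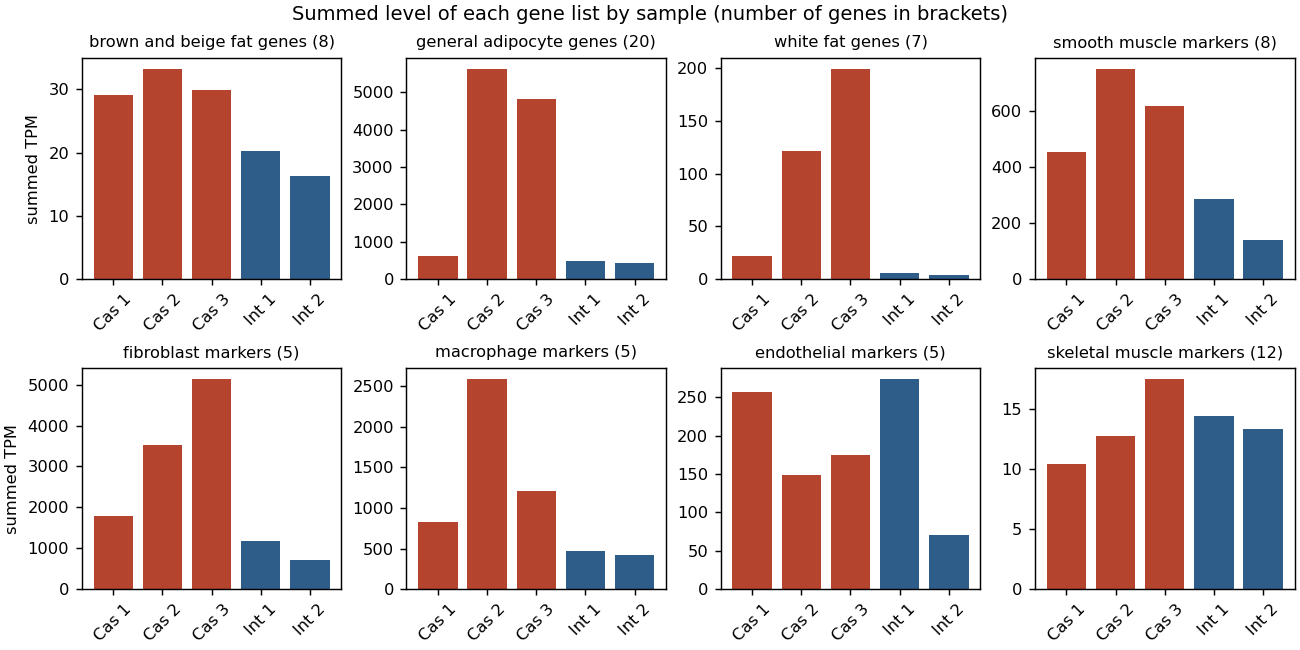
Summed TPM of 8 gene lists in castrated replicates 1 to 3 (Cas, red) and intact replicates 1 and 2 (Int, blue), with the number of genes of each list in brackets and a separate y axis for each. The general adipocyte and white fat lists are highest in castrated replicates 2 and 3, the brown and beige genes lie between 16.3 and 33.3 TPM, and the skeletal muscle markers stay under 18 TPM.

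An exon of another gene on the opposite strand overlaps an exon of 6 of the 8 genes in GENCODE M21 (all but Ucp1 and Ppargc1a), and the counting is not stated to use the strand, so reads of such pairs cannot be told apart. The 2 overlapping genes with a row of their own, Pitx3 beside Elovl3 and Gm9899 beside Kcnk3, had 1 and 10 reads in all samples together.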

How the data were processed

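Total RNA of prostate tissue was depleted of ribosomal RNA and sequenced as paired ends. The authors used Trimmomatic 0.39 for trimming and STAR 2.7.9 for alignment to mm10, counted reads per gene with HTSeq 2.0.2, and deposited the unnormalized counts. Gene lengths in the same table served to compute TPM. Samples were grouped by their labels. Each is a separate sample of its group, and no pair within a group was the same library (chi-square per gene between 116 and 280).

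The main test was the quasi-likelihood F-test of edgeR 4.0.16 (R 4.3.3) on TMM-scaled counts of the 14612 genes that exceeded 1 CPM in 2 or more samples, with Benjamini-Hochberg adjustment. The test and filter are those of the study's methods, which name TPM as the input, whereas counts were used here. The standard error was taken as |log2 fold change| / √F. DESeq2 1.42.0, limma 3.58.1 (voom), 2 other scalings, 2 other filters, a replicate block and leaving out each sample were alternatives. The floor for a count of 0 was 3 counts, exact intervals were at 95%, and log2 CPM used a prior count of 2. The 8 genes and the lists were chosen with earlier results of these data known. Named with values were the 8 genes, the 6 most abundant other thermogenic genes and any passing at the unadjusted p, and from each other list the 3 most abundant genes and the 2 with the largest change, as far as they are described, with Adipoq, Lep, Cidea, Cox8b, Zic1, Lhx8, Ucp2 and Ucp3. Cox7a1, Tmem26, Tnfrsf9, Tbx1, Ppargc1b, Pprc1, Ebf1, Ebf3, Ebf4, Mecom, Ryr1, Dio3, Hoxc8, Hoxc9, Hoxc10, Cdh1, Tgm4, Pbsn, Acta1, Tnnt3 and genes without reads were named once their values were known. Positions follow the annotation columns of the count table.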

Additional observations from a re-analysis of the deposited data

How the results depend on the processing

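The direction of the 6 tested genes was the same in every alternative in which each was tested. DESeq2 called 989 genes (703 higher, 286 lower) and 3 of the 8 genes, Kcnk3 (adjusted p = 0.000447), Prdm16 (0.0134) and Ppargc1a (0.0262), whose adjusted p over all alternatives reached up to 0.75, 0.766 and 0.75, where edgeR's quasi-likelihood test called 0 of each. At the unadjusted p, DESeq2 passed 6 of the 8 genes in place of 3, and 2071 of all genes in place of 1530. edgeR with the other scalings and filters and limma voom called 0 genes after adjustment. Leaving out one sample each, the number of genes called ranged from 0 to 1, the number of the 8 called stayed at 0, the number passing at the unadjusted p ranged from 800 to 2517 over all genes (820 without castrated replicate 2, 836 with the genes of all samples kept, 820 without castrated replicate 3 with those genes kept, 2495 without intact replicate 1) and from 1 (without intact replicate 1, Kcnk3) to 5 (without castrated replicate 1) over the 8 genes. With an intact sample left out, the lone one is assumed to vary like the castrated samples. Adrb3 was not tested without castrated replicate 2 or 3 unless the genes passing in all samples were kept, an alternative chosen after seeing the data. The lowest log2 fold changes among these fits were 2.53 for Prdm16, 1.24 for Ebf2, 2.40 for Adrb3, 0.95 for Dio2 and 5.27 for Kcnk3, and for Ppargc1a the range was -1.75 to -0.90.

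Samples that share a replicate number are different animals. Deviations from the group means correlated at 0.149 between the samples numbered 1 and at -0.045 between those numbered 2. Under a replicate block, 0 genes were called, 883 passed at the unadjusted p in place of 1530, and 4 of the 8 genes did. Only a castrated sample carries the number 3, so castrated replicate 3 adds nothing to the difference between groups under the block. The block therefore also acts like leaving that sample out. Prdm16 no longer passed (unadjusted p = 0.0512), Dio2 (0.0319) and Adrb3 (0.0406) did, and Kcnk3 and Ppargc1a passed in both fits. The log2 fold change of Ebf2 was 1.10 under the block, and the median of the other thermogenic genes was -0.0085. That median was -0.0041 without castrated replicate 2 with the genes of all samples kept. A count of 0 in one sample allows between 0.105 and 0.161 CPM, which bounds what these depths can show for Ucp1 and Elovl3.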
